A study of Homo sapiens with 3 samples.

Results

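The genes described here are the ubiquitin-specific proteases (USPs) other than USP16 and the USPs best known for acting on histones. They were taken from the deposited table by name and biotype alone: protein-coding genes called USP and a number, with or without an X, leaving out USP16, USP21, USP3, USP22, USP12, USP46 and USP44. This gave 44 genes out of 51 USP genes named this way, 19951 protein-coding genes and 58735 genes in the table. The rule itself uses no measured value, but it was set with earlier results of these data known.

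USPs are cysteine proteases that cut ubiquitin from proteins, and they form the largest family of human deubiquitinases. Ubiquitin chains can send a protein to the proteasome or alter its place and partners, so a USP can stabilise its substrates or switch off a ubiquitin signal. Many USPs act in DNA repair, the p53 pathway, the cell cycle and receptor traffic, and several are studied as cancer drug targets. mRNA levels do not measure their protein or activity.

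RNA-seq was made from cells labelled HGC-27, the name of a gastric cancer line. There was 1 library carrying a control short hairpin RNA (shControl, labelled WT for genotype and scramble in its column name). The other 2 carried a hairpin against USP16 (shUSP16-1 and shUSP16-2). Whether -1 and -2 stand for hairpins, clones or repeats is not in the labels, nor is it whether cultures were separate, so every p-value rests on a spread between libraries that may be technical. All 3 libraries share the same medium with 10% serum, and the labels' protocols also describe, for all of them, 1 uM dexamethasone with 0.5 mM isobutylmethylxanthine and then 10 ug/ml insulin for 2 days; whether these cells received it is unclear. Every difference below is a difference from the lone control library.

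Values are FPKM, fragments per kilobase of gene scaled to library size, so levels can be compared between genes. Whole reads recovered from them summed to between 29530581 and 31187845 per library. The targeted gene, USP16, had 6.28 FPKM in shControl, with ratios to it of 0.683 (95% interval of counting error 0.621 to 0.749) in shUSP16-1 and 0.952 (0.875 to 1.04) in shUSP16-2. Scaled by sums of reads, these were 0.639 (0.582 to 0.702) and 0.876 (0.805 to 0.953), so whether shUSP16-2 lay past counting error turned on the scaling, and both are called libraries labelled shUSP16. The epithelial markers KRT8, KRT18, KRT19, EPCAM and CDH1 summed to 0.206 to 0.718 FPKM, with KRT19 at 0 reads in all 3 libraries, and 7 stomach markers, with TFF1, TFF2 and MUC5AC at 0, to 0.0893 to 0.142 FPKM. These markers of the labelled tissue were thus absent or close to it, and whether the cells are the labelled line was not tested. Of the mesenchymal markers, VIM, encoding vimentin, was at 155 to 180 FPKM, FN1 at 0.605 to 1.05 FPKM and CDH2 at 10 reads or fewer. The fibroblast markers DCN, LUM, COL1A1 and PDGFRB summed to 94.4 FPKM in shControl, 103 in shUSP16-1 and 130 in shUSP16-2. Its members differed. COL1A1 was higher in both libraries labelled shUSP16. Both limma voom fits called COL1A1 (adjusted p = 0.034 and 0.048), but limma did not (0.280). LUM and DCN were below shControl in shUSP16-1 and above it in shUSP16-2. PDGFRB was also higher in both but stayed under 1 FPKM in every library, at 0.417 to 0.809. The sum thus came almost wholly from COL1A1, LUM and DCN. PTPRC, CD3E and PECAM1, defining markers of leukocytes and endothelium, were at 0 reads in every library, CD68 had 1 to 6 reads and VWF 4 to 7. The part of the fibroblast marker sum in the differences below was not tested, and in bulk RNA fewer cells of a type and less RNA per cell cannot be told apart.

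Most USPs were expressed. Of the 44 genes, 37 had a mean of at least 1 FPKM over the 3 libraries (84.1%, where 55.5% of protein-coding genes did), 5 had fewer, and 2 had no read. The median level was 5.57 FPKM in shControl, 5.80 in shUSP16-1 and 5.62 in shUSP16-2, against 1.94, 1.85 and 1.83 FPKM over all protein-coding genes. Together the 44 genes took between 0.242% (shControl) and 0.247% (shUSP16-2) of a library's reads. Their mRNA was unevenly divided: the 6 highest genes (USP14, USP39, USP1, USP10, USP5 and USP7) held 44.3% of the summed FPKM of the 44 in shControl, 48.3% in shUSP16-1 and 49.4% in shUSP16-2.

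**Figure D1:**
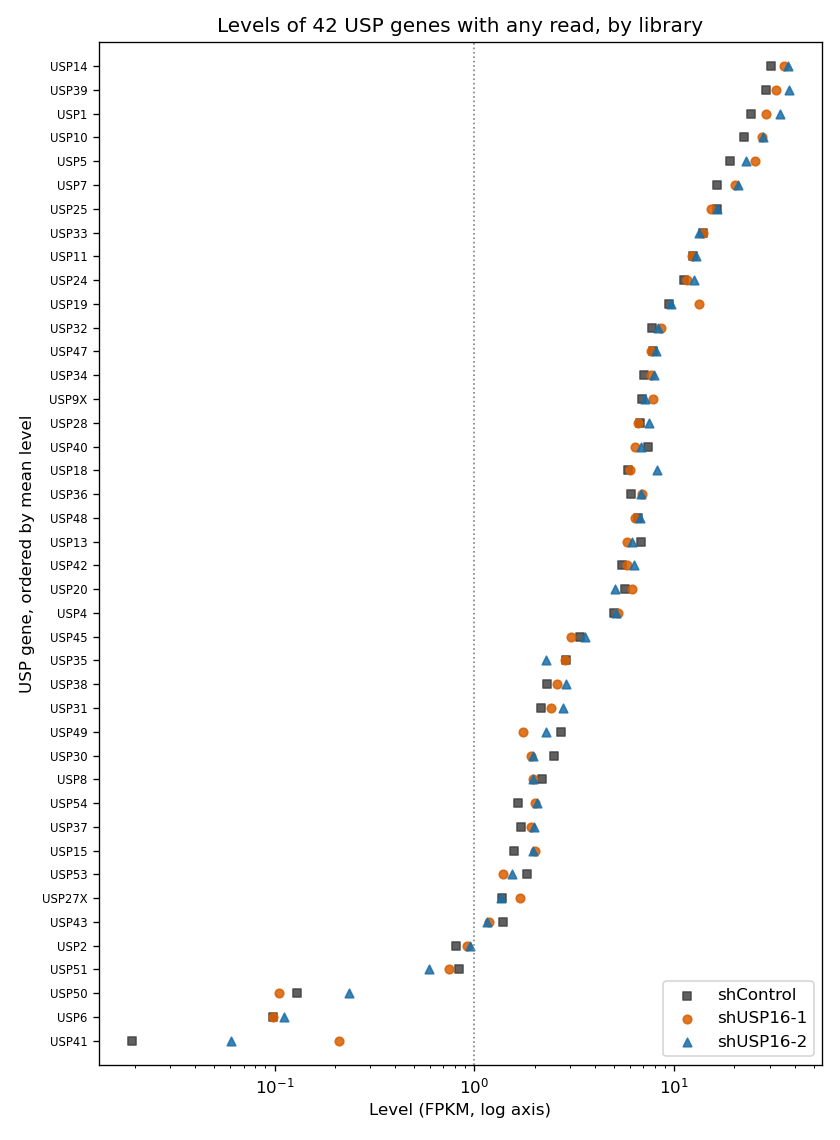
Levels (FPKM, log axis) of the 42 USP genes with any read, 1 point per library, ordered by mean level; the dotted line marks 1 FPKM. The 3 libraries of most genes lie close together on this axis, as in USP14, at 30.5 to 37.2 FPKM. Some, such as USP49 at 1.74 to 2.71 FPKM, spread more. USP50 and USP41, which had few reads, spread the most.

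The USPs that recycle ubiquitin and serve the proteasome included the highest of the 44 genes. USP14, which trims chains on proteins bound to the proteasome (ENSG00000101557, chromosome 18, 158383 to 214629, plus strand, GRCh38), had the highest mean, with 30.5 FPKM in shControl, 35.6 in shUSP16-1 and 37.2 in shUSP16-2. USP5, which takes apart free ubiquitin chains (ENSG00000111667, chromosome 12, 6852128 to 6866632, plus strand), was at 19.0, 25.4 and 22.9 FPKM in the same order. Both were lowest in shControl. USP13, the close relative of USP5, stood lower and went the other way, at 6.78 FPKM in shControl, 5.80 in shUSP16-1 and 6.15 in shUSP16-2.

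Among USPs of DNA repair and the p53 pathway, 3 were in the top 6. USP1, which deubiquitinates FANCD2 and PCNA (ENSG00000162607, chromosome 1, 62436297 to 62451804, plus strand), had 24.3 FPKM in shControl, 28.7 in shUSP16-1 and 33.6 in shUSP16-2. USP10, a deubiquitinase of p53 that binds the stress granule protein G3BP1 (ENSG00000103194, chromosome 16, 84699978 to 84779922, plus strand), had 22.3, 27.6 and 27.9 FPKM. USP7, which stabilises MDM2 and p53 (ENSG00000187555, chromosome 16, 8892094 to 8964514, minus strand), had 16.4, 20.2 and 20.9 FPKM. In all 3 genes both libraries labelled shUSP16 lay above shControl. The others of this role with at least 1 FPKM were flatter: USP11 at 12.2 to 12.8 FPKM, USP47 at 7.66 to 8.07, USP28, a stabiliser of MYC, at 6.62 to 7.49, USP48 at 6.33 to 6.73 and USP42 at 5.48 to 6.31. USP45, which acts on the repair nuclease ERCC1 (ENSG00000123552, chromosome 6, 99432379 to 99521728, minus strand), is the nearest relative of USP16 and had 3.39 FPKM in shControl, 3.05 in shUSP16-1 and 3.58 in shUSP16-2. Its control value lay between those of the libraries labelled shUSP16, but with sums of reads as totals both were below it (ratios 0.842 and 0.973).

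USPs of the cell cycle, splicing and transcription ranged widely. USP39, a splicing factor that lacks protease activity (ENSG00000168883, chromosome 2, 85602856 to 85649282, plus strand), had 28.9 FPKM in shControl, 32.4 in shUSP16-1 and 37.5 in shUSP16-2, where it was the highest of the 44. USP33 was at 13.2 to 13.9 FPKM, USP24 at 11.2 to 12.5, USP9X at 6.90 to 7.83, the nucleolar USP36 at 6.06 to 6.87, USP20 at 5.05 to 6.12 and USP37 at 1.71 to 1.99. USP49, chosen for description after its values were seen, stood at 2.71, 1.74 and 2.29 FPKM in the same order of libraries, the widest relative spread among the 37. USP2 was under the limit of 1 FPKM, at 0.812 in shControl, 0.922 in shUSP16-1 and 0.945 in shUSP16-2.

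Signalling USPs were of middle level. USP25 led with 15.3 to 16.3 FPKM, followed by USP34, a regulator of Wnt signalling through axin, at 7.05 to 7.95, USP4 at 5.01 to 5.22, and USP31, USP38, USP27X and USP43 between 1.16 and 2.89. USP15, which acts in TGF-beta signalling (ENSG00000135655, chromosome 12, 62260338 to 62417431, plus strand), had 1.57 FPKM in shControl, 2.01 in shUSP16-1 and 1.97 in shUSP16-2. USP18, which removes the ubiquitin-like ISG15 and is induced by interferon (ENSG00000184979, chromosome 22, 18149899 to 18177397, plus strand), had 5.84, 6.04 and 8.21 FPKM, so only shUSP16-2 stood apart. USP41 (ENSG00000161133, chromosome 22, 20350578 to 20390758, minus strand) had only 1, 10 and 3 reads in shControl, shUSP16-1 and shUSP16-2, and 85.1% of its longest coding transcript is at least 97% identical to USP18, so its reads are uncertain. Summed with USP41, USP18 had ratios to shControl of 1.06 in shUSP16-1 (95% interval 0.918 to 1.22) and 1.41 in shUSP16-2 (1.24 to 1.61), where intervals here and below cover counting error only.

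At membranes and organelles, USP19, which is anchored in the endoplasmic reticulum, had 9.37 FPKM in shControl, 13.2 in shUSP16-1 and 9.68 in shUSP16-2. It was high in 1 library labelled shUSP16 alone. USP32 was at 7.74 to 8.55 FPKM, USP40 at 6.34 to 7.38, USP35 at 2.27 to 2.88, USP54 at 1.66 to 2.05, USP53 at 1.39 to 1.82 and USP8, which deubiquitinates receptors on endosomes, at 1.96 to 2.18. USP30, a mitochondrial deubiquitinase that opposes mitophagy (ENSG00000135093, chromosome 12, 109023089 to 109088026, plus strand), had 2.51 FPKM in shControl, 1.91 in shUSP16-1 and 1.97 in shUSP16-2. It was the reverse of USP15: both libraries labelled shUSP16 lay below shControl and close to each other.

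The lowest USPs had few reads or none. USP51 (ENSG00000247746, chromosome X, 55484616 to 55489202, minus strand) had 0.836, 0.744 and 0.593 FPKM, USP6 (ENSG00000129204, chromosome 17, 5116438 to 5175034, plus strand) 36, 33 and 39 reads, and USP50 (ENSG00000170236, chromosome 15, 50500562 to 50546708, minus strand) 8, 6 and 14 reads in shControl, shUSP16-1 and shUSP16-2. USP50 shares 545 exonic bases with USP8 on the opposite strand, 28.6% of its length, and strand handling is not given, so reads of the 2 genes there cannot be told apart. USP26 and USP29, known mainly from testis, had 0 reads in every library, which allows up to 3 reads, or 0.0222 to 0.0258 FPKM. Of 5 X-linked USPs, USP9X, USP11 and USP27X passed 1 FPKM and USP26 and USP51 did not.

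Neighbours in the order of levels mostly had overlapping ranges over the 3 libraries, a comparison that does not pair the genes within a library. Only in 9 of 43 neighbouring pairs did all 3 libraries of the higher gene lie above all 3 of the next. These breaks included those after USP7, after USP4 and after USP45. Overlap of ranges does not mean that the order changed: USP39, USP1, USP10, USP5 and USP7 stood in this order within each library. FPKM also depends on the deposited gene length, which for all 44 genes was the union of the exons of every annotated transcript in GENCODE release 29. With the length of the longest coding transcript in its place, USP48 moved from rank 20 to 10 among the 44, USP53 from 35 to 27 and USP4 from 24 to 17, while the top 6 were the same genes in another order.

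No USP passed the test of shUSP16 against shControl, a test with 1 residual degree of freedom that can miss changes, so 0 calls do not show that levels were equal. limma on log2(FPKM + 1) called 0 of the 37 tested USPs at an adjusted p under 0.05, as it called 0 of 13852 genes (0.0%). At an unadjusted p under 0.05 there were 3 USPs, USP10, USP7 and USP5, or 8.11%, where 12.8% of the 11069 protein-coding genes tested were there. limma restricted to protein-coding genes, which called 0.434% of its genes, and limma voom on recovered reads, which called 2.51% with the authors' totals and 4.02% with sums of reads, also called 0 USPs. The limma differences of the 37 ran from -0.30 for USP49 to 0.34 for USP1 on the log2 scale, with a median of 0.092 beside 0.067 for protein-coding genes and 0.042 for all genes tested. The middle 50% of the USPs lay between -0.038 and 0.19, and of protein-coding genes between -0.086 and 0.21.

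Differences of the 37 tested USPs from shControl were small in both libraries. None was at least 1.5-fold higher or at least 1.5-fold lower in both libraries labelled shUSP16, rules that 1.23% and 1.67% of protein-coding genes met. Of the 37, USP15 alone was at least 25% higher in both (9.27% of protein-coding genes) and USP30 alone at least 20% lower in both (5.94%). With no limit of size, 20 of 37 were higher in both and 10 lower in both, or 54.1% and 27.0%, where 50.2% and 28.2% of protein-coding genes were. The balance turned with the scaling: with libraries scaled to equal sums of reads, 13 were higher in both and 15 lower in both, where protein-coding genes gave 34.6% and 42.6%. The median log2 difference of the 37 was then 0.0081, and that of USP11, USP24, USP47, USP28 and USP4 changed sign. Scaling by median ratio of reads stayed near the authors' totals, with factors of 1.001 in shControl, 0.997 in shUSP16-1 and 1.003 in shUSP16-2. For sums of reads the factors were 1.05, 0.984 and 0.967. With median ratios no tested USP changed sign.

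**Figure D2:**
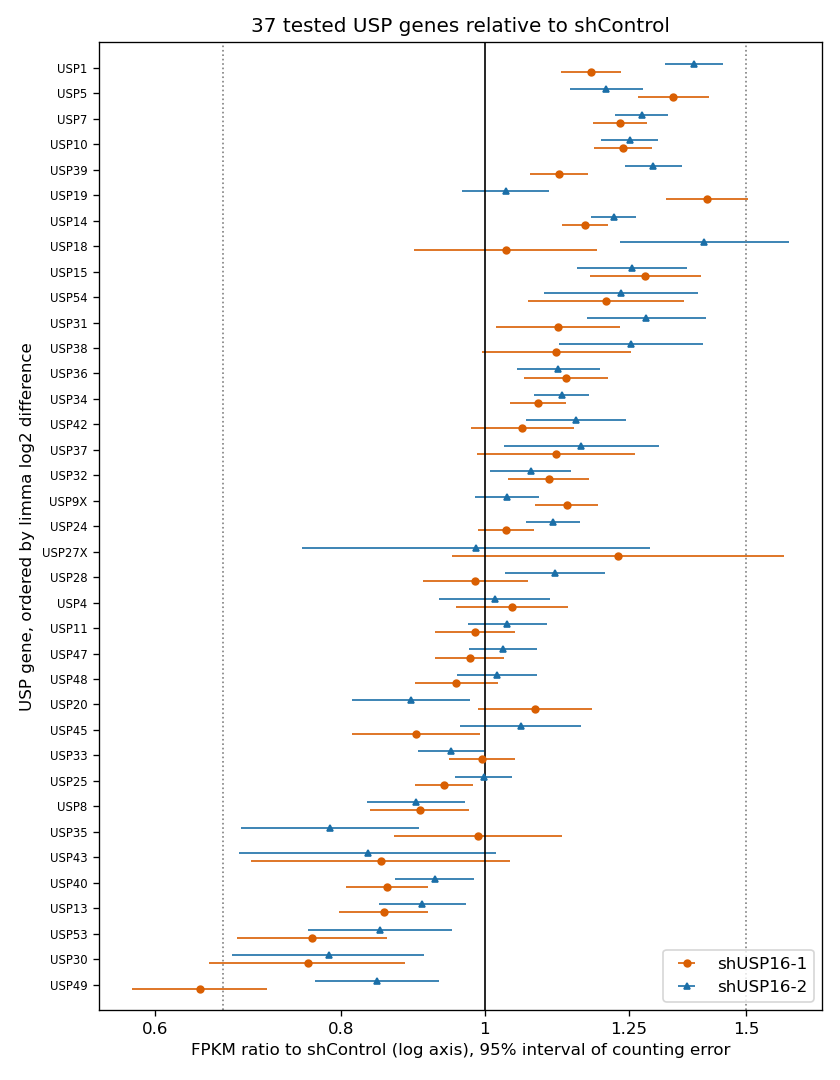
FPKM ratio to shControl (log axis) for each of the 37 tested USP genes in shUSP16-1 and shUSP16-2, with 95% intervals of counting error; the solid line marks 1 and dotted lines mark 1.5-fold. All ratios lie between 0.643 (USP49 in shUSP16-1) and 1.41 (USP19 in shUSP16-1), and no gene is past a dotted line in both libraries.

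Single genes can be read against counting error. USP15 had ratios to shControl of 1.28 (1.18 to 1.40) in shUSP16-1 and 1.26 (1.15 to 1.37) in shUSP16-2, on 992 reads in shControl. Its mean was 1.99 ± 0.0289 FPKM (SD, n = 2) in shUSP16, with a limma log2 difference of 0.22, an SE of 0.18 and an adjusted p of 0.587. USP30 had ratios of 0.760 (0.652 to 0.884) and 0.785 (0.676 to 0.911) on 420 reads. Its mean was 1.94 ± 0.0447 FPKM (SD, n = 2), with a log2 difference of -0.26, an SE of 0.17 and an adjusted p of 0.503 in limma. Both genes had libraries labelled shUSP16 that differed from each other by less than counting error.

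The 5 most abundant USPs were higher in both libraries labelled shUSP16 with either scaling, and none was called. USP1 had the highest log2 difference, 0.34 with an SE of 0.14 (limma 95% interval -0.027 to 0.71, adjusted p = 0.362). In shUSP16 USP10 averaged 27.7 ± 0.195 FPKM (SD, n = 2), with a log2 difference of 0.30 (limma 95% interval 0.0087 to 0.60, adjusted p = 0.339). USP5 averaged 24.2 ± 1.77 FPKM (SD, n = 2), with a log2 difference of 0.33 (limma adjusted p = 0.342). USP39 and USP14 had log2 differences of 0.26 and 0.25 (limma adjusted p = 0.427 and 0.390). Their ratios to shControl ran from 1.12 for USP39 in shUSP16-1 to 1.38 for USP1 in shUSP16-2. USP7, sixth in level and named after its values were seen, had ratios of 1.23 (1.18 to 1.29) and 1.27 (1.22 to 1.33), a log2 difference of 0.31 and a limma adjusted p of 0.341.

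Other abundant genes were on the same side. Of the 7 USPs with a mean of at least 15 FPKM, 6 were higher in both and USP25 was lower in both. USP25 had ratios of 0.940 in shUSP16-1 and 0.998 (0.955 to 1.04) in shUSP16-2, the latter within counting error with the authors' totals. Of 2687 protein-coding genes at that level, 71.1% were higher in both and 12.6% lower in both. The median log2 difference was 0.30 for these USPs and 0.18 for those genes. Of 17 USPs between 5 and 15 FPKM, 9 were higher in both (53.4% of protein-coding genes) and 3 lower in both (24.9%). Of 13 between 1 and 5 FPKM, 5 were higher in both (32.9%) and 6 lower in both (42.1%). The limits of these ranges were set after the values were seen. Level and difference use the same libraries, so they are not independent.

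**Figure D3:**
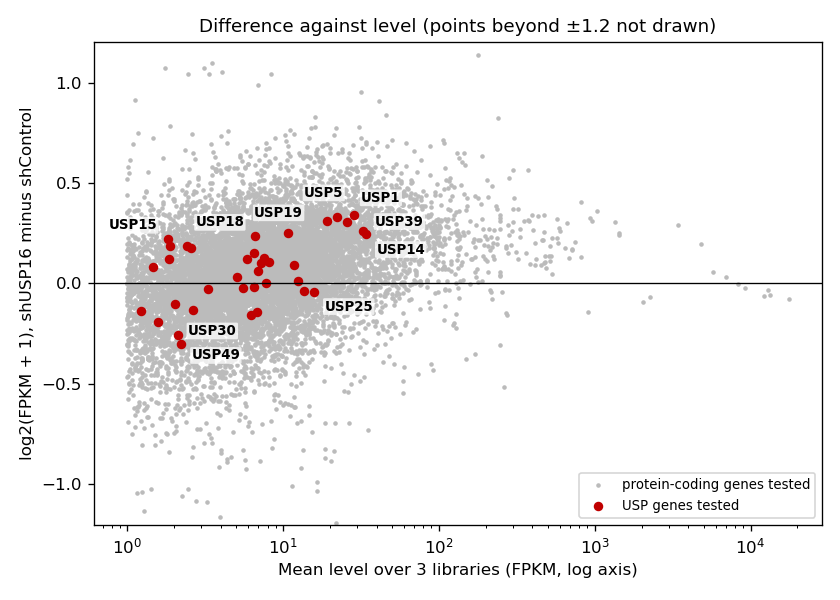
Difference of shUSP16 from shControl in log2(FPKM + 1) against mean level (FPKM, log axis) for 37 USP genes (red) and protein-coding genes tested (grey). The USPs lie between -0.30 and 0.34, inside the cloud of other genes, and the abundant ones are on the upper side, as is most of the cloud there.

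Counting error alone was passed in both libraries, on the same side, by 12 USPs above 1 and 6 below 1, or 32.4% and 16.2%, where 33.4% and 14.1% of protein-coding genes were. Besides the genes above, the higher ones were USP32, USP34, USP36, USP31 and USP54, and the lower ones USP40, USP13, USP49, USP8 and USP53. With sums of reads as totals 8 were above and 11 below, or 21.6% and 29.7%, where 20.2% and 25.0% of protein-coding genes were. Part of USP34 (18.0% of its length) overlaps exons of AHSA2P on the opposite strand, which had 27.9 FPKM in shControl, 19.5 in shUSP16-1 and 17.6 in shUSP16-2, so reads of USP34 and AHSA2P there cannot be told apart.

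The libraries labelled shUSP16 also differed from each other. For 18 of 37 USPs (48.6%) they were apart by more than counting error, where 54.7% of protein-coding genes were. USP19, chosen after its values were seen, had a ratio to shControl of 1.41 in shUSP16-1 and 1.03 (0.966 to 1.10) in shUSP16-2, with a limma log2 difference of 0.25 with an SE of 0.20 (adjusted p = 0.585). USP49 had 0.643 (0.579 to 0.714) and 0.846 (0.769 to 0.931), and was the only tested USP past 1.5-fold in a single library (limma log2 difference -0.30, adjusted p = 0.492). USP18 had 1.03 (0.896 to 1.19) and 1.41 (1.23 to 1.60), with a log2 difference of 0.23 (limma adjusted p = 0.598). USP45, nearest relative of the targeted gene, had 0.899 (0.814 to 0.993) and 1.06 (0.962 to 1.16), a log2 difference of -0.027 and a limma 95% interval of -0.42 to 0.37 (adjusted p = 0.946). That interval is wide enough to hold every limma difference of the 37 USPs.

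By role, counts on the 2 sides differed between groups of 3 to 9 genes, and none was tested as a group; protein-coding genes gave 50.2% higher in both and 28.2% lower, or 34.6% and 42.6% with sums of reads. Of 3 tested USPs for ubiquitin recycling and the proteasome, 2 were higher in both libraries and 1 lower in both, with either scaling. In DNA repair and p53, 4 of 9 were higher in both and 0 lower, but with sums of reads 3 were higher and 4 lower. In the cell cycle, splicing and transcription group 5 of 8 were higher and 2 lower (3 and 2 with sums of reads). In signalling 6 of 9 were higher and 2 lower (4 and 3). Membrane and organelle USPs had 3 of 8 higher and 5 lower (1 and 5). Their median log2 difference was -0.12, where protein-coding genes tested had 0.067 and all genes tested 0.042. The lower ones were USP8, USP30, USP35, USP40 and USP53, and they were lower in both with either scaling. USP35 was within counting error of shControl in shUSP16-1 with either scaling (ratio 0.990, 0.869 to 1.13, with the authors' totals). All of them but USP40 had means between 1 and 5 FPKM, where 42.1% of protein-coding genes were lower in both. Protein-coding genes at that level had a median log2 difference of -0.031. limma called 0 genes in each role.

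Some related USPs lay on opposite sides of shControl. The ratio of 2 USPs within a library does not depend on how libraries are scaled, so 10 pairs of close relatives were compared by that ratio. The pairs were listed after the values were seen. USP15 is in 2 of them, with USP4 and with USP11, while USP4 with USP11 was not listed. In shUSP16-1 and shUSP16-2, USP4 had ratios to shControl of 1.04 and 1.02, and USP11 of 0.985 and 1.04. The ratio of USP5 to USP13 was 2.80 in shControl, 4.38 in shUSP16-1 and 3.72 in shUSP16-2, or 1.57 times (1.43 to 1.71) and 1.33 times (1.22 to 1.45) its control value. USP53 to USP54 was 1.10 in shControl, 0.697 in shUSP16-1 and 0.757 in shUSP16-2. By deposited length the order of these genes was thus turned round in both. Mean levels depend on the length used: USP53 had 1.59 and USP54 1.90 FPKM by deposited length, but 3.13 and 2.89 by longest coding transcript. Part of USP54 (16.1% of its length) overlaps PPP3CB-AS1 on the opposite strand. PPP3CB-AS1 had 108, 65 and 59 reads in the same order of libraries, and reads there cannot be told apart. The ratio of USP31 to USP43 was 1.56, 2.05 and 2.40, USP7 to USP47 2.09, 2.63 and 2.59, and USP4 to USP15 3.19, 2.59 and 2.58. In 6 of the 10 pairs the ratio differed from shControl beyond counting error on the same side in both libraries. Among all 666 pairs of the tested USPs 43.7% did so, and there is no replicate of shControl to say how much such ratios vary between control libraries.

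**Figure D4:**
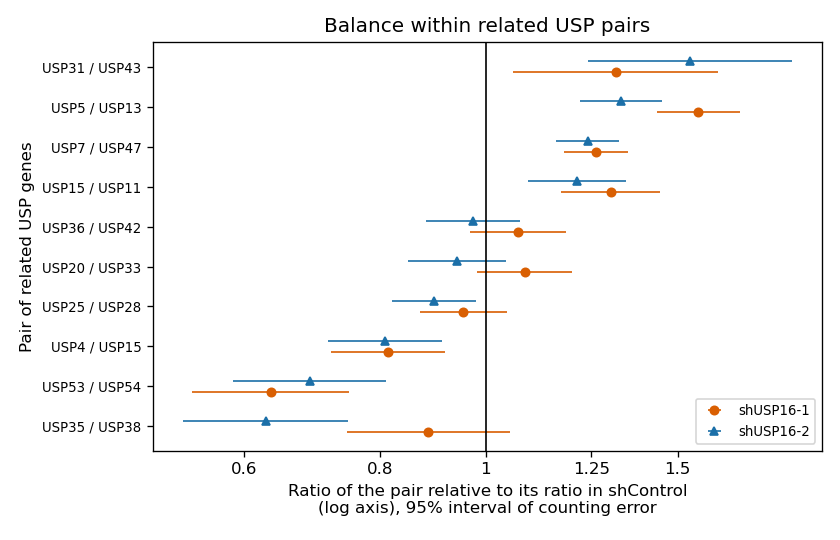
Ratio of 10 pairs of related USP genes in shUSP16-1 and shUSP16-2, divided by the same ratio in shControl (log axis), with 95% intervals of counting error; 1 means the balance of the pair was as in shControl. USP5 / USP13 lies at 1.57 and 1.33 and USP53 / USP54 at 0.634 and 0.689, on opposite sides of 1.

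Promoter sequences are shown for USP5, USP7 and USP10, the USPs with the lowest limma p, and for USP13, which went the other way from its relative USP5. Each is the 250 bases before a RefSeq transcription start on GRCh38.p14, the listed start nearest to the deposited gene's own, from 22 bases away for USP5 and USP10 to 608 for USP7; these 4 were chosen after values were seen. They are chr12:6851900-6852149 (plus strand), chr16:8963907-8964156 (minus strand), chr16:84699750-84699999 (plus strand) and chr3:179652790-179653039 (plus strand). The stretches of USP7 and USP13 lie wholly inside the deposited genes, downstream of the start used for the levels. Capitals mark matches, on either strand, to a GC box (GGGCGG) or a CCAAT box (CCAAT).
USP5: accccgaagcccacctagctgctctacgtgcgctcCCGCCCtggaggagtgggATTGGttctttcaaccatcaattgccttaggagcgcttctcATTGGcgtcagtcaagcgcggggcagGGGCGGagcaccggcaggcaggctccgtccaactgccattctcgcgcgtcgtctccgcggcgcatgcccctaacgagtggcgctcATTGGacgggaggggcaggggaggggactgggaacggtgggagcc
USP7: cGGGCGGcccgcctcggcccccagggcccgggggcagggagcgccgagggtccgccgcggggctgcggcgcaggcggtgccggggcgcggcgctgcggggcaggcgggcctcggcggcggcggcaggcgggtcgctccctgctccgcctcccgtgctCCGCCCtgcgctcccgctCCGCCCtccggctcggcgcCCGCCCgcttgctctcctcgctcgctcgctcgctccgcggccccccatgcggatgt
USP10: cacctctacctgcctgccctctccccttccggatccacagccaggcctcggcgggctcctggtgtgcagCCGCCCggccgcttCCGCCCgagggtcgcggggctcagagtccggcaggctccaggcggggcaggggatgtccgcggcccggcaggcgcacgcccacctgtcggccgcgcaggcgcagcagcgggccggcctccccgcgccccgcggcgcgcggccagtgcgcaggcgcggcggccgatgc
USP13: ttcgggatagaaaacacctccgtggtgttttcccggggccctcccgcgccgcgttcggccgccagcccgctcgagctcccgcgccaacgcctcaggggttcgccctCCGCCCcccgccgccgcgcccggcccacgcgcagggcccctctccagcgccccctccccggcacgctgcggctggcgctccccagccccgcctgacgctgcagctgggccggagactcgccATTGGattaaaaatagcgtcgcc
GC boxes stand in all 4, and CCAAT boxes in USP5, with 3, and USP13, with 1. Some matched starts lay far from the deposited one: 30337 bases for USP32, 17518 for USP2 and 6305 for USP45, which all count below. In all, USP promoters were matched for 33 of the 44 genes. A GC box was found in 25 of these (75.8%, against 57.1% of 14895 protein-coding promoters of the same length) and a CCAAT box in 9 (27.3%, against 34.6%). An E-box (CACGTG) stood in 1, that of USP28 (3.03%, against 7.88%), and TATAAA in 1, that of USP40 (3.03%, against 9.10%). Median GC content was 70.4% for USPs and 62.4% for protein-coding promoters. These matches are descriptions of the letters and not binding sites.

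No calls were made among other deubiquitinases. Of 36 other deubiquitinases in the table (UCH, OTU, Josephin, JAMM and MINDY families with ZUP1), 29 were tested; limma and both voom fits called 0. In both libraries 13 were higher and 10 lower, but 11 and 12 with sums of reads, beside the shares of protein-coding genes given above for each scaling. The median log2 difference was 0.078. OTUD5, of the OTU family, led at 0.40 (10.0, 13.3 and 13.8 FPKM in shControl, shUSP16-1 and shUSP16-2), and UCHL5, a proteasome-bound deubiquitinase, was at 0.30. MINDY1, specific for long K48-linked chains, was lowest at -0.39 (5.78, 4.70 and 3.72 FPKM) and YOD1 was at -0.29. The limma adjusted p of these 4 ran from 0.295 to 0.381.

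Binding partners of USPs were also without calls by limma or voom. Of 12 tested, 8 were higher in both and 1 lower (8 and 3 with sums of reads), with a median log2 difference of 0.18. Protein-coding genes gave 50.2% and 28.2% (34.6% and 42.6%). These shares depend on level: with the authors' totals they were 71.1% and 12.6% at 15 FPKM or more, and 53.4% and 24.9% between 5 and 15 FPKM. G3BP1, partner of USP10, was at 20.4, 23.6 and 25.6 FPKM in shControl, shUSP16-1 and shUSP16-2, a log2 difference of 0.26, and PSMD2, the proteasome subunit that binds USP14, at 33.4, 37.6 and 41.0 FPKM, a log2 difference of 0.23. WDR48, the activator of USP1, named after its values were seen, was at 4.09, 4.35 and 4.01 FPKM, with a log2 difference of 0.024 (limma adjusted p = 0.944).

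The interferon response genes, among which USP18 is commonly counted, were not called either. Of 16 listed, 8 were tested, with 1 higher and 2 lower in both, where 50.2% and 28.2% of protein-coding genes were. Their median log2 difference was -0.14, with 0 calls by limma or voom. With sums of reads 0 were higher and 6 lower in both, where 34.6% and 42.6% of protein-coding genes were. ISG15, the substrate of USP18, had 9.99 FPKM in shControl, 11.3 in shUSP16-1 and 6.96 in shUSP16-2. It was lowest in shUSP16-2, where USP18 was highest, and was named after its values were seen. In shUSP16-1 both ISG15 and USP18 were above shControl, USP18 within counting error. A link between the levels of these genes was not tested. IFI44, at 1.66, 0.755 and 1.27 FPKM, had the largest difference among the 8 tested, -0.41 on the log2 scale (limma adjusted p = 0.488).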

How the data were processed

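Titles placed the 3 RNA-seq libraries labelled HGC-27 in their groups. The authors deposited FPKM values per gene with gene lengths, per the file headers; the aligner, counter and strand setting were not given in the sources used here. Mouse builds (GRCm38, mm10) stand in the submitters' processing notes, yet IDs and coordinates of all 58735 genes equal human GENCODE release 29, so GRCh38 is used. FPKM times gene length was a whole multiple of 1 step per library for 100% of values above 0 (tolerance 0.01 reads), which gave reads; the totals implied by the FPKM were 1.08, 1.01 and 0.994 times the sums of reads in shControl, shUSP16-1 and shUSP16-2, for a reason not given, so both scalings were compared.

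limma 3.58.1 in R 4.3.3 was fitted on log2(FPKM + 1), with a mean trend, over the 13852 genes averaging 1 FPKM or more, with Benjamini-Hochberg adjustment. Spread was estimated from both libraries labelled shUSP16 (1 residual and 4.05 prior degrees of freedom), and the control was assumed to vary like them. Fold changes on this scale understate those of low genes; ratios are of FPKM with no pseudocount, with exact binomial 95% intervals. Intervals of pair ratios are normal approximations on the log scale. limma and voom were tested on simulated data. Shared sequence was found with blastn 2.17.0 (at least 100 bases and 97% identity).

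Every member could be named. By rule, all values were given for members called by any fit, 25% or more above or 20% or more below shControl in both, among the 5 highest or 5 lowest with reads, and USP45, USP18 and USP41; other lists had up to 4 members named by the change of the weaker library. USP7, USP13, USP19, USP49, the pairs, the level ranges, WDR48 and ISG15 were described after their values were seen. Members and lists were chosen with earlier results of these data known. The result for 1 gene list is not reported here. The alternatives were the pseudocount, filters, scalings, trend, biotype, voom, fold limits and leaving out each library; the transcript length and the count under both scalings were added after seeing the data. Promoters are from RefSeq on GRCh38. Scripts ran in Python 3.11.15 (scipy 1.17.1, pandas 2.3.3, numpy 2.4.6), and figures were drawn with matplotlib 3.10.9.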

Additional observations from a re-analysis of the deposited data

How the results depend on the processing

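No USP was called by limma or by any of the 10 other fits, although the number of genes called rose from 0 to 13 with a mean of at least 5 FPKM, 48 with protein-coding genes alone, 348 with voom and 557 with voom on sums of reads. The median log2 difference of the tested USPs was 0.115 with a pseudocount of 0.1, 0.106 with a mean of at least 5 FPKM, 0.116 with voom, 0.0081 with sums of reads as totals, 0.0086 with voom on such sums, and between 0.062 and 0.071 when either library labelled shUSP16 was left out. The USPs higher in both numbered 13 with sums of reads, with voom on sums and under both scalings together, and those lower in both numbered 4 with a mean of at least 5 FPKM. Signs turned negative with sums of reads, and with voom on them, for USP11 (-0.086 and -0.093), USP24 (-0.0070 and -0.0075), USP47 (-0.092 and -0.10), USP28 (-0.034 and -0.038) and USP4 (-0.055 and -0.066); shControl has the largest gap between implied and summed totals, and the cause was not tested. Past 1.5-fold in both libraries there were 872 genes, with 2738 at 25%, 265 at 2-fold, 8003 with no filter, 174 with a mean of at least 5 FPKM and 1600 to 2012 with a single library labelled shUSP16. The USPs that far numbered 0, with 2 at 25% (USP15 and USP30), 1 with no filter (USP41, on 1 to 10 reads) and 0 to 1 with a single library (USP49 in shUSP16-1). Leaving out a library leaves 1 against 1 and no test of calls. No paired analysis was possible because there is a single shControl library, whose label carries no number, so the groups share fewer than 2 numbers. With 1 control library, its own spread is unknown, and USP41, USP50 and USP6, at 39 reads or fewer per library, have wide counting intervals.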
